A study of Sus scrofa with 6 samples.

Results

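Translation initiation, elongation and termination factors and cytosolic poly(A)-binding proteins were followed in porcine preadipocytes, the precursor cells of fat, with and without TGF-β1. The members were the genes of the mRNA table whose names follow the EIF, EEF, ETF1, GSPT1 and PABPC patterns, without the EIF2AK kinases. Of 22164 genes in the table, 52 matched. They were 40 EIF genes, taken here as initiation factors, 7 EEF genes, taken as elongation factors and their modifying enzymes, the termination factors ETF1 and GSPT1, and the poly(A)-binding protein genes PABPC1, PABPC4 and PABPC5. The rule read gene names and no measured values, although the family was picked for description with earlier results of these data known. The names also took in EIF2C1 to EIF2C4, older symbols of the Argonaute genes, which act in RNA silencing and are described apart.

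The cells came from subcutaneous adipose tissue of Junmu white pigs labelled as 5 days old. The NC group (negative control, 3 samples) received 10 mM citric acid and the TGF-β1 group (3 samples) received 10 ng/mL recombinant human TGF-β1, both for 48 h. Citric acid is named for NC only, so its absence and the presence of TGF-β1 cannot be told apart. The paper calls the samples biological replicates, and the labels carry a number from 1 to 6 within the name of the pigs, which may not identify animals. No label says whether the cultures were separate, so the p-values measure the spread between these samples, which may be technical.

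Initiation brings the small ribosomal subunit, with the initiator tRNA carried by eIF2, to the capped end of an mRNA that is held by eIF4F. The multi-subunit eIF3 holds the small subunit and its partners together, and start codon recognition is followed by joining of the large subunit. Elongation then runs on eEF1A, which delivers aminoacyl-tRNA, and on eEF2, which moves the ribosome along. In mammals the mRNAs of eEF1A, eEF2, poly(A)-binding protein and several eIF3 subunits carry a terminal oligopyrimidine tract (TOP) at their start, as ribosomal protein mRNAs do, and their translation depends on mTOR signaling.

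Values were deposited as FPKM, the fragments of a gene scaled to its length and to the mapped fragments of the sample, so levels of different genes can be set side by side. The summed FPKM of all genes was 418531 to 448468 in NC and 392976 to 404489 with TGF-β1, so the groups did not overlap in this total. The number of fragments behind a value is not given in the files. Low FPKM values, where whole fragments can be seen, put the depth of the other 5 samples at 0.740 to 0.881 of that of NC replicate 1. NC replicates 2 and 3 were at 0.881 and 0.778 and the TGF-β1 samples at 0.740, 0.798 and 0.842. The paper, in contrast, reports more raw reads for TGF-β1 than for the control, and raw reads are a different measure from the fragments behind FPKM. Of 13 preadipocyte and stromal markers 12 were found, and their FPKM summed to 8351 to 9268 in NC and 8320 to 9664 with TGF-β1. Most of this sum came from VIM and the collagens, while CD34 was at 1.245 to 3.27, NT5E at 2.17 to 3.97 and ENG at 3.65 to 5.27 over all samples. At an unadjusted p of 0.05 from limma COL1A1 and COL1A2 were higher and CD34 was lower with TGF-β1. Of the 14 tested rows of these markers, 2 were thus higher and 1 lower, where 2.72% and 7.26% of all tested genes were. The adjusted p of these 3 from limma was 0.393 to 0.483. The adipocyte marker ADIPOQ was at 0.0512 to 0.812 FPKM. The 6 adipocyte markers found summed to 0.510 to 1.83 FPKM in NC and 0.524 to 1.42 with TGF-β1. Summed over 7 macrophage markers, FPKM was 39.0 to 150 in NC and 18.8 to 98.0 with TGF-β1, and over 5 endothelial markers it was 9.73 to 16.9 and 8.84 to 12.4. Each of the 7 macrophage markers was lower with TGF-β1 when samples of the same replicate number were compared, although 0 had separate groups. AIF1, for example, was at 7.88, 26.8 and 33.4 in NC and 3.03, 11.9 and 18.7 with TGF-β1. The sum of 7 epithelial markers was 0.0378 to 0.429 in NC and 4.04 to 5.15 with TGF-β1. Of these 7, 5 were tested and 2, KRT5 and KRT8, were called at an adjusted p of 0.1 from limma, where 0.096% of all tested genes were. With TGF-β1 most of this sum came from KRT5 (1.95 to 2.29) and KRT14 (0.869 to 2.28). CDH1 was at 0 to 0.118 and KRT18 at 0 to 0.0462 over all samples. Whether the epithelial markers stand for epithelial cells was not tested, nor was the part of other cell types in the values below. Of 10 TGF-β response genes 8 were found, 0 were called and their median log2 fold change was 0.07. In such bulk samples, fewer cells of a type and less RNA per cell cannot be told apart.

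Translation factors were abundant, and 50 of the 52 members exceeded an FPKM of 1 in all 6 samples. These 50 also passed the filter of the test, an FPKM above 0.1 in at least 3 samples, while EEF1D and PABPC5 did not. The difference between TGF-β1 and NC was tested with limma on log2(FPKM + 0.1) over all 17708 genes that passed the filter. None of the 50 members passed at an adjusted p of 0.1, where 0.096% of all tested genes did, and the smallest adjusted p among the members was 0.354 (EIF3H, from limma). At an unadjusted p of 0.05 from limma, 7 of 50 members were lower with TGF-β1 and 0 were higher, where 7.26% of all tested genes were lower and 2.72% were higher. All 3 TGF-β1 values lay below all 3 NC values in 20 members and above them in 2, where this held for 14.3% and 3.83% of all tested genes. Among the 11330 genes with an FPKM above 1 in all 6 samples, which include the 50 members, 7.87% were lower at a p of 0.05, 18.1% were separate and lower and 3.04% separate and higher.

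Members as a whole lay close to the general level of change. The median log2 fold change was -0.13 for the 40 tested initiation factors and -0.18 for the 6 tested elongation genes. It was -0.10 both for all tested genes and for the 11330 genes with an FPKM above 1 in all samples, the reference used here. Relative to this reference median, initiation stood at -0.03 and elongation at -0.08, and no test was made of these medians. With EIF5A counted as an elongation factor, the initiation and elongation medians were both -0.13. The elongation median was also -0.13 with no filter or with a filter of a mean FPKM of at least 1. Without the modifying enzyme EEF2K it was -0.22. Of the initiation factors, 23 of 40 lay below the reference median, as did 5 of the 6 elongation genes. By role, the median was -0.25 for 4 eIF4E-binding genes, which include the uneven EIF4EBP1, -0.19 for 10 eIF3 subunits, -0.08 for 6 eIF2 and eIF2B subunits, -0.07 for 10 genes of eIF4F and its cofactors, and -0.09 for 5 genes of start codon recognition and subunit joining.

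**Figure D1:**
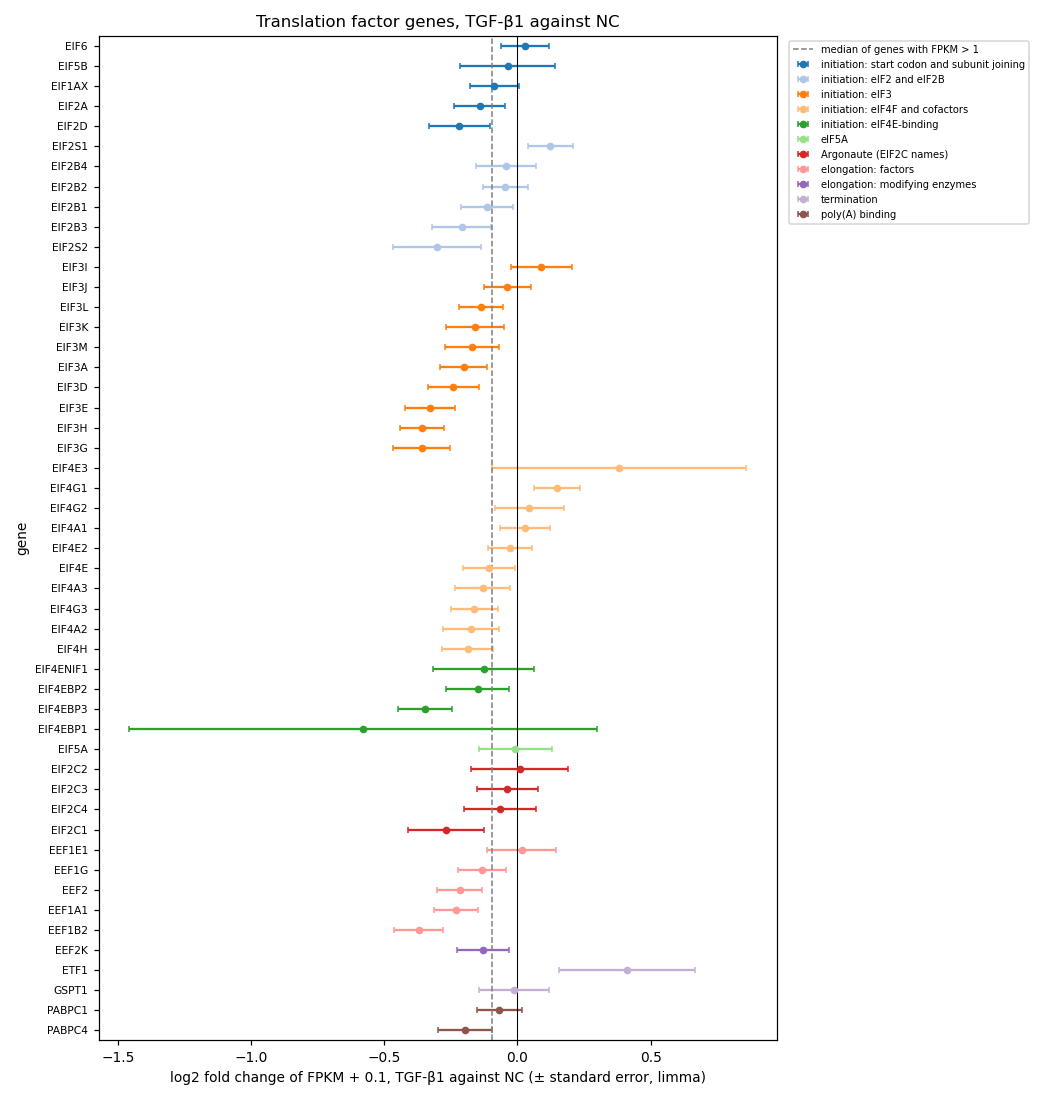
Log2 fold change of FPKM + 0.1, TGF-β1 against NC, on the horizontal axis for the 50 tested members on the vertical axis, colored by role. Points are estimates with standard errors from limma, the solid line is 0 and the dashed line is the reference median of -0.10. The eIF3 subunits other than EIF3I and EIF3J lie left of the dashed line, and EIF4EBP1 has the widest error.

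EEF1A1, which encodes the main isoform of the factor that brings aminoacyl-tRNA to the ribosome, had the highest FPKM of all genes in each of the 6 samples. Its FPKM was 10619, 10856 and 10297 in NC and 9021, 8986 and 9064 with TGF-β1. These groups did not overlap, and the TGF-β1 mean was 85.2% of the NC mean, a log2 fold change of -0.23 (standard error, SE, 0.08, limma adjusted p = 0.467). The gene alone held 2.37%, 2.45% and 2.46% of the summed FPKM in NC and 2.23%, 2.25% and 2.31% with TGF-β1, so the groups were also separate as a share of each sample.

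EEF2, the translocation factor, had an FPKM of 1332, 1403 and 1423 in NC and 1190, 1191 and 1194 with TGF-β1. The 3 TGF-β1 values were nearly equal and all were lower, at a log2 fold change of -0.22 (SE 0.08, limma adjusted p = 0.485). EEF1B2, a subunit of the exchange factor that recharges eEF1A with GTP, had 1015, 954 and 910 in NC and 769, 742 and 713 with TGF-β1. It had the largest difference of the elongation genes, at -0.37 (SE 0.09, limma adjusted p = 0.380), and its groups were far apart. For EEF1G, another subunit of that exchange factor, FPKM was 718.5, 694 and 650 in NC and 649, 617 and 612 with TGF-β1. Its groups were barely separate (log2 fold change -0.13, SE 0.09). EEF1E1, a scaffold protein of the multi-tRNA synthetase complex, had overlapping groups at 18.1 to 20.0 and 17.0 to 22.3. EEF2K, the kinase that inhibits eEF2, overlapped as well at 8.26 to 9.10 in NC and 7.40 to 8.31 with TGF-β1 (log2 fold change -0.13, SE 0.10).

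Summed over the 6 tested elongation genes, FPKM made up 3.06%, 3.14% and 3.18% of each NC sample and 2.88%, 2.89% and 2.95% of each TGF-β1 sample. The 40 initiation factors made up 0.786%, 0.794% and 0.733% and then 0.775%, 0.801% and 0.747%. The share of elongation genes was thus lower in every TGF-β1 sample, whereas that of initiation factors overlapped. Most of the elongation share was EEF1A1, at a mean of 2.43% of the 3.13% in NC and 2.26% of the 2.91% with TGF-β1. With samples scaled to the same total, EEF1A1 and EEF1B2 were separate and lower. EEF2, EEF1G, EEF2K and EEF1E1 then overlapped.

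Subunits of eIF3 were the initiation factors with the most members separate and lower, 7 of the 10 tested, where 14.3% of all tested genes and 18.1% of the reference genes were. Under each of the 3 other scalings given further on, 5 of the 10 were. EIF3H had an FPKM of 189, 192 and 180 in NC and 143.5, 148 and 146 with TGF-β1. All NC values exceeded all TGF-β1 values by a wide margin, at a log2 fold change of -0.36 (SE 0.08, limma adjusted p = 0.354). EIF3E had 179, 177 and 163 in NC and 132, 144 and 138 with TGF-β1. Its log2 fold change was -0.33 (SE 0.09, limma adjusted p = 0.412), and its groups were separate. EIF3G, an RNA-binding subunit that takes part in scanning, had 236.5, 224 and 202 in NC and 183, 163 and 171 with TGF-β1. Its log2 fold change was -0.36 (SE 0.11, limma adjusted p = 0.421), again without overlap.

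EIF3A, the largest subunit and the scaffold of the complex, and EIF3D, which can bind the cap of some mRNAs in human cells, were also separate and lower. EIF3A had 63.1, 67.0 and 60.1 in NC and 56.0, 54.8 and 54.3 with TGF-β1, and EIF3D had 80.0, 83.1 and 75.8 and then 72.0, 64.1 and 66.1. Their log2 fold changes were -0.20 and -0.24 (SE 0.09 and 0.10, limma adjusted p = 0.527 and 0.501). EIF3L and EIF3M were separate and lower as well, at -0.14 and -0.17, and EIF3K and EIF3J overlapped, at -0.16 and -0.04. EIF3I was the subunit above 0, with 106, 99.4 and 86.8 in NC and 110, 103 and 97.6 with TGF-β1, and these groups overlapped (log2 fold change 0.09, SE 0.12). Its value was 0.0089 without NC replicate 3, 0.0455 without TGF-β1 replicate 1 and 0.15 without NC replicate 1. The FPKM of the 10 subunits summed to 0.291%, 0.284% and 0.284% of the NC samples and 0.270%, 0.263% and 0.271% of the TGF-β1 samples, without overlap.

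**Figure D2:**
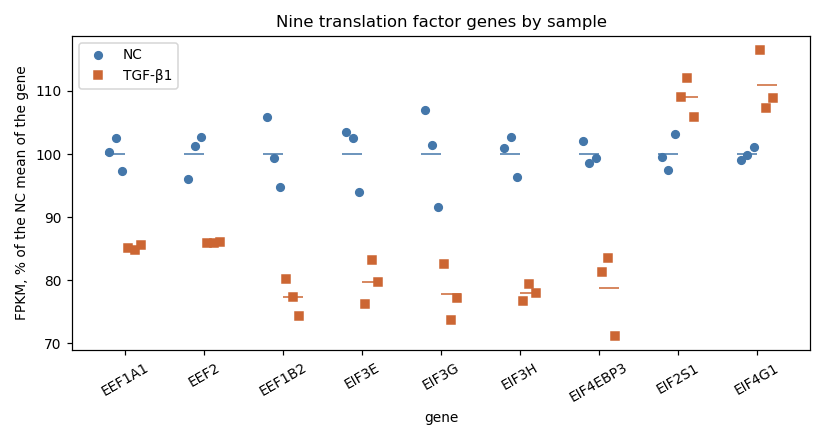
FPKM of 9 members in each sample, as a percentage of the NC mean of the gene, with circles for NC, squares for TGF-β1 and lines at the group means. The 7 members picked by a p under 0.05 from limma lie lower in all 3 TGF-β1 samples. Their means are at 77.3% to 86.0% of NC, where the reference median of -0.10 corresponds to 93.6%. EIF2S1 and EIF4G1 lie higher, at 109% and 111%.

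Levels of eIF2 and its exchange factor eIF2B were mixed. EIF2S1, the alpha subunit whose phosphorylation limits initiation under stress, had an FPKM of 42.1, 41.3 and 43.7 in NC and 46.2, 47.4 and 44.8 with TGF-β1. It was 1 of the 2 members that were separate and higher (log2 fold change 0.12, SE 0.08, limma adjusted p = 0.651). EIF2S2, the beta subunit, went the other way, with 67.1, 54.5 and 54.5 in NC and 39.3, 53.6 and 50.5 with TGF-β1. Its groups were separate by a small margin, and 1 sample of each group stood apart from the others (log2 fold change -0.30, SE 0.17). The value was -0.17 without TGF-β1 replicate 1 and -0.20 without NC replicate 1, and the groups overlapped under all 3 other scalings. Of the eIF2B subunits, EIF2B3 was separate and lower at -0.21, and EIF2B1, EIF2B2 and EIF2B4 overlapped at -0.11, -0.05 and -0.04.

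Among genes of start codon recognition and subunit joining, EIF1AX, EIF5B and EIF6 had overlapping groups. EIF6, which keeps the large subunit from joining too early, had 99.1, 100.2 and 92.6 in NC and 103, 98.7 and 96.1 with TGF-β1 (log2 fold change 0.03, SE 0.09). EIF2A and EIF2D, which can deliver initiator tRNA in place of eIF2, were separate and lower, at -0.14 and -0.22. Both overlapped under all 3 other scalings. EIF5A, first named as an initiation factor and now known to help the ribosome through difficult peptide bonds during elongation, had 103, 100.5 and 92.7 in NC and 114, 95.8 and 85.8 with TGF-β1. Its groups overlapped widely (log2 fold change -0.01, SE 0.14).

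The cap-binding complex eIF4F consists of the cap-binding protein eIF4E, the helicase eIF4A and the scaffold eIF4G. EIF4G1, the main scaffold, was the other member that was separate and higher, with 49.6, 49.95 and 50.6 in NC and 58.3, 53.7 and 54.5 with TGF-β1. Its log2 fold change was 0.15 (SE 0.09, limma adjusted p = 0.608). EIF4G3, its paralog, was separate and lower, with 15.8, 16.6 and 15.5 in NC and 13.8, 14.6 and 14.5 with TGF-β1 (log2 fold change -0.16, SE 0.09). EIF4G2, a related scaffold that does not bind eIF4E, was the most abundant initiation factor, with 502, 493 and 399 in NC and 502, 485 and 445 with TGF-β1. It overlapped, and its log2 fold change of 0.05 (SE 0.13) turned to -0.06 without NC replicate 3.

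Of the helicases, EIF4A1 had 365, 371 and 338 in NC and 384, 363 and 346 with TGF-β1, with widely overlapping groups (log2 fold change 0.03, SE 0.09). EIF4A2 had 259, 243 and 218 in NC and 219, 214 and 204 with TGF-β1. The lowest NC value lay just under the highest TGF-β1 value (log2 fold change -0.17, SE 0.10). EIF4A3, a component of the exon junction complex, was at 62.1 to 72.2 in NC and 59.0 to 64.6 with TGF-β1. EIF4E had 33.1, 33.3 and 30.5 in NC and 29.6, 32.0 and 28.5 with TGF-β1, with overlap (log2 fold change -0.11, SE 0.10). EIF4E2, a cap-binding protein that represses translation, was even across all samples at 18.9 to 19.9. EIF4H, which stimulates eIF4A, was separate and lower, with 193, 184 and 167 in NC and 159, 163 and 155 with TGF-β1 (log2 fold change -0.19, SE 0.10). Summed over the 10 genes of eIF4F and its cofactors, FPKM made up 0.337%, 0.336% and 0.313% of the NC samples and 0.361%, 0.355% and 0.339% of the TGF-β1 samples. These shares did not overlap and were higher with TGF-β1, but the summed FPKM itself overlapped, at 1511.9, 1486.7 and 1309.8 in NC and 1460.6, 1417.9 and 1331.3 with TGF-β1, so the separation appeared only after division by the lower totals of the TGF-β1 samples.

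Ratios within a sample do not depend on a factor that scales the whole sample, although quantile normalization can alter them, and 7 ratios of deposited FPKM were tested by two-sided exact permutation, where 3 samples against 3 allow no p below 0.1. The ratio of EIF4A2 to EIF4A1 was 0.711, 0.655 and 0.645 in NC and 0.570, 0.588 and 0.590 with TGF-β1. All 3 TGF-β1 ratios were lower, a log2 difference of -0.20 (exact p = 0.1, adjusted p = 0.350 over the 7 ratios). The ratio of EIF4G3 to EIF4G1 was 0.318, 0.333 and 0.306 in NC and 0.236, 0.271 and 0.266 with TGF-β1. It was also lower in all 3 samples, by a log2 difference of -0.31 (exact p = 0.1, adjusted p = 0.350). Both p-values are the smallest that this design allows. The other 5 ratios overlapped, with exact p of 0.2 to 0.9. For PABPC4 to PABPC1 the mean of 3 NC ratios was 0.868 (SD 0.0769) and that of 3 TGF-β1 ratios 0.793 (SD 0.0515), and for EIF4E2 to EIF4E these means were 0.6145 (SD 0.0293) and 0.650 (SD 0.0533). The ratios of EEF2K to EEF2 and of EIF4EBP2 to EIF4E differed on the log2 scale by 0.09 and -0.04 between the groups. After quantile normalization EEF2K had a log2 fold change of -0.04 and EEF2 one of 0.02, so the order of this pair was reversed.

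**Figure D3:**
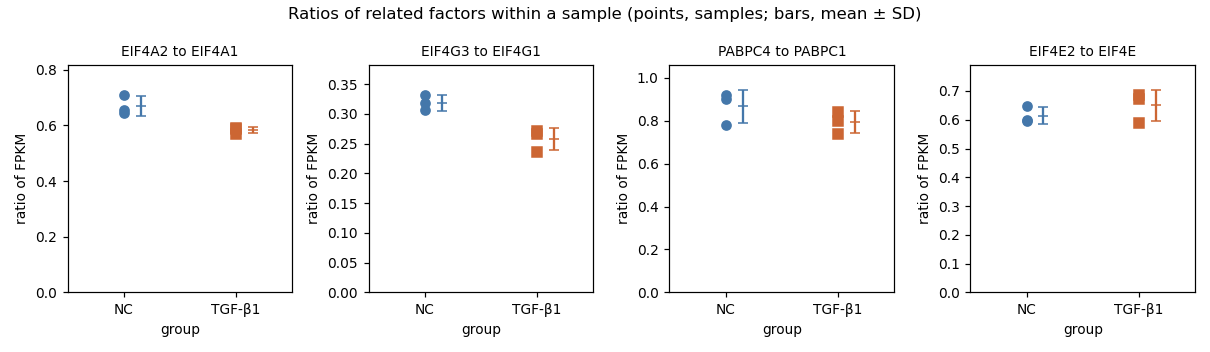
Ratio of FPKM within each sample for 4 pairs of related factors, with points for samples and bars for the mean ± SD of 3 samples. EIF4A2 to EIF4A1 and EIF4G3 to EIF4G1 are lower in all 3 TGF-β1 samples than in all 3 NC samples, and the other pairs overlap.

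The eIF4E-binding proteins hold eIF4E back from eIF4G until mTOR phosphorylates them. EIF4EBP3 had an FPKM of 34.2, 33.0 and 33.3 in NC and 27.2, 28.0 and 23.8 with TGF-β1. The NC values were tight and all higher, at a log2 fold change of -0.35 (SE 0.10, limma adjusted p = 0.417). In the RefSeq table of Sscrofa11.1 the gene follows ANKHD1, which in mammals can be joined to it in readthrough transcripts, and ANKHD1 was at 8.95 to 9.27 in NC and 8.13 to 8.74 with TGF-β1. EIF4EBP2 was low, at 4.67 to 5.60 in NC and 4.31 to 5.03 with TGF-β1, and overlapped (log2 fold change -0.15, SE 0.12). EIF4ENIF1, which carries eIF4E into the nucleus and to P-bodies, overlapped as well (log2 fold change -0.13, SE 0.19).

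EIF4EBP1 varied between samples of the same group more than any other tested member. It had 140, 213 and 42.8 in NC and 47.0, 205 and 39.8 with TGF-β1. NC replicates 1 and 2 and TGF-β1 replicate 2 were high and the other 3 samples were low, so the split did not follow the treatment. The log2 fold change of -0.58 had a standard error of 0.88 (limma adjusted p = 0.837). It was -0.09 without NC replicate 2, -0.15 without TGF-β1 replicate 3, -0.26 without TGF-β1 replicate 1, -1.248 without NC replicate 3 and -1.33 without TGF-β1 replicate 2. Its highest value was 5.34 times its lowest, and 131 of the 11330 reference genes (1.16%) had a ratio as large. The ratio of EIF4EBP1 to EIF4E ranged from 1.40 to 6.38 in NC and from 1.40 to 6.40 with TGF-β1 (exact permutation p = 0.8). For the 50 members, the median of the highest over the lowest sample was 1.27, against 1.38 for the reference genes, and the other member above 2 was EIF4E3, an atypical cap-binding protein. EIF4E3 had 5.50, 4.53 and 9.49 in NC and 10.4, 11.8 and 4.31 with TGF-β1, and here too 1 sample of each group went against the others (log2 fold change 0.38, SE 0.48). Leaving out 1 sample at a time gave 0.11 (without TGF-β1 replicate 2) to 0.83 (without TGF-β1 replicate 3).

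ETF1, which encodes the release factor that reads stop codons, had 61.8, 59.4 and 53.1 in NC and 92.1, 94.9 and 52.7 with TGF-β1. TGF-β1 replicates 1 and 2 were far above all NC samples and replicate 3 was below them. The log2 fold change was 0.41 (SE 0.26, limma adjusted p = 0.627) and became 0.69, with an unadjusted p below the 0.05 limit, without TGF-β1 replicate 3, but 0.28 without TGF-β1 replicate 1 and 0.26 without replicate 2. GSPT1, the GTPase partner of ETF1 in termination, was at 12.4 to 16.4 in NC and 13.5 to 14.8 with TGF-β1, with overlap.

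EEF1D, a further subunit of the exchange factor for eEF1A, was listed at 0 in 5 samples and at 146 in TGF-β1 replicate 3. No other gene of the table was at 0 in 5 samples and above 100 in the sixth. Because a value of 0 may mean that the estimate failed, and eEF1B subunits are used by every cell, no fold change is given. MROH6, which lies near EEF1D in the RefSeq table, had 30.5, 29.9 and 29.4 in NC, 29.2 and 25.3 in TGF-β1 replicates 1 and 2 and 8.22 in replicate 3, the sample with EEF1D. GSDMD, the next gene, was even at 45.0 to 51.2.

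**Figure D4:**
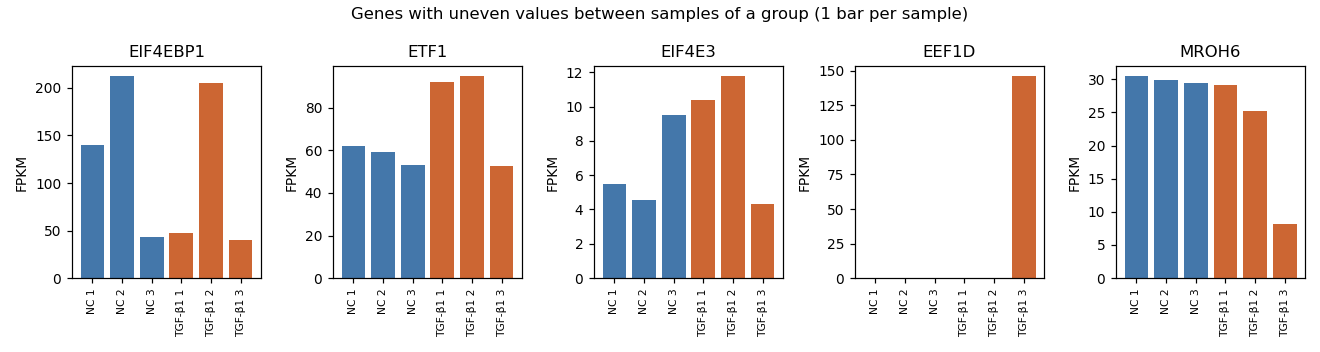
FPKM of EIF4EBP1, ETF1, EIF4E3, EEF1D and the nearby gene MROH6, with 1 bar per sample. In the first 3 panels samples of the same group differ, and in TGF-β1 replicate 3 EEF1D is at 146 while MROH6 is at 8.22.

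PABPC1 and PABPC4 encode proteins that coat the poly(A) tail and bind eIF4G. PABPC1 had 42.9, 43.4 and 44.7 in NC and 42.6, 40.3 and 42.1 with TGF-β1, and PABPC4 had 39.6, 39.2 and 34.9 and then 34.1, 33.8 and 31.1. Both were separate and lower, PABPC1 by a small margin that was lost under the other scalings, with log2 fold changes of -0.07 and -0.20 (SE 0.08 and 0.10). PABPC5 was near the limit of expression, at 0.0559 to 0.192 in NC and 0.0765 to 0.118 with TGF-β1. The Argonaute genes EIF2C1 to EIF2C4 were at 2.65 to 5.13 in NC and 2.68 to 5.08 with TGF-β1. Their groups overlapped in all 4, with log2 fold changes of -0.27, 0.01, -0.04 and -0.07, and without them the initiation median was -0.13.

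Further factors stood in the table under LOC numbers and were recognized through RefSeq. They are not counted among the members. EIF1AD, an eIF1A domain protein, had 1.98, 1.95 and 1.83 in NC and 2.31, 2.50 and 2.82 with TGF-β1. It was separate and higher, at a log2 fold change of 0.38 (SE 0.11, limma adjusted p = 0.412). EIF1, which guards start codon choice, was even at 68.2 to 71.8 and 66.6 to 70.0, and EIF1B was separate and lower at -0.10. EIF2S3, the gamma subunit of eIF2, EIF2B5, the catalytic subunit of eIF2B, and EEF1AKMT3, a methyltransferase of eEF1A, overlapped at 0.08, -0.27 and 0.18. EIF3B, EIF3C, EIF3F, EIF4B, EIF5, EIF5A2 and EEF1A2 are not analysed here.

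Members with a TOP tract known from human were set beside the rest. Of 7 tested (EEF1D, also of this kind, was below the filter, and the 7 were EEF1A1, EEF1B2, EEF1G, EEF2, EIF3E, EIF3H and PABPC1), all 7 were separate and lower, 5 with a p under 0.05 from limma, and their median log2 fold change was -0.23. Under median-ratio scaling, quantile normalization and the same total, 5, 3 and 4 of the 7 were separate and lower and 3, 3 and 2 had a p under 0.05 from limma, and PABPC1 was above 0 in all 3. Of the 43 other members, 13 were separate and lower and 2 separate and higher, and their median was -0.11. The 66 tested cytosolic ribosomal protein genes, which carry the same tract, had a median of -0.26, with 56 separate and lower and 0 separate and higher. Among all tested genes 14.3% were separate and lower and 3.83% separate and higher. Under the same scalings 44, 27 and 40 ribosomal protein genes were separate and lower and 1, 3 and 1 separate and higher. Ribosomal protein genes made up 21.3%, 20.9% and 21.8% of the summed FPKM in NC and 19.1%, 19.3% and 20.1% with TGF-β1. The 22 rows of cytosolic aminoacyl-tRNA synthetases, which charge tRNAs, had a median of -0.04. Of these 22 rows 2 were lower at an unadjusted p of 0.05 from limma, near the 7.26% of all tested genes, KARS at -0.25 and 1 of 3 rows named VARS at -0.26, while the other rows of VARS were at 0.00 and 0.13. These medians are descriptions and the differences between them were not tested.

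The summed FPKM was lower with TGF-β1, and direction depended on scaling for many members. Scaling moved the reference median from -0.10 to 0.00 by median ratio, to -0.00 by quantile normalization and to 0.03 by the same total. The split of 20 members separate and lower against 2 separate and higher became 10 against 6, 8 against 5 and 8 against 8 under these scalings. Over all tested genes this held for 7.34% against 7.92%, 7.71% against 7.48% and 5.62% against 9.91%. At a p of 0.05 from limma, 5, 5 and 3 members were lower, where 3.65%, 3.81% and 2.83% of all tested genes were, and 2 members were higher under each scaling, where 4.45%, 4.31% and 5.47% were. EIF3G, EIF3H and EEF1B2 were lower with a p under 0.05 from limma in all 3, EIF3E and EIF4EBP3 in 2 of the 3, and EEF1A1 and EEF2 in 0. EIF2S1 and EIF4G1 were higher with a p under 0.05 in all 3, at log2 fold changes of 0.22 to 0.25 and 0.24 to 0.28, and their adjusted p was 0.502 to 0.610. EIF3A and EIF3D stayed separate and lower in all 3, EEF1A1 in 2 and EEF2, EIF4H and PABPC4 in 1. EEF1G, EIF2A, EIF2B3, EIF2D, EIF3L, EIF3M and EIF4G3, separate and lower as deposited, overlapped in all 3. EIF4A1, EIF2B2 and EIF6, whose deposited values overlapped, were separate and higher in all 3. For eIF3 the median was -0.09, -0.10 and -0.06, below the scaled reference median each time, with 5 subunits separate and lower each time against 1, 0 and 2 separate and higher. For the TOP members it was -0.13 and -0.10 by median ratio and same total, but -0.00 by quantile normalization, which by construction gives EEF1A1, the highest gene of every sample, the same value in all 6.

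**Figure D5:**
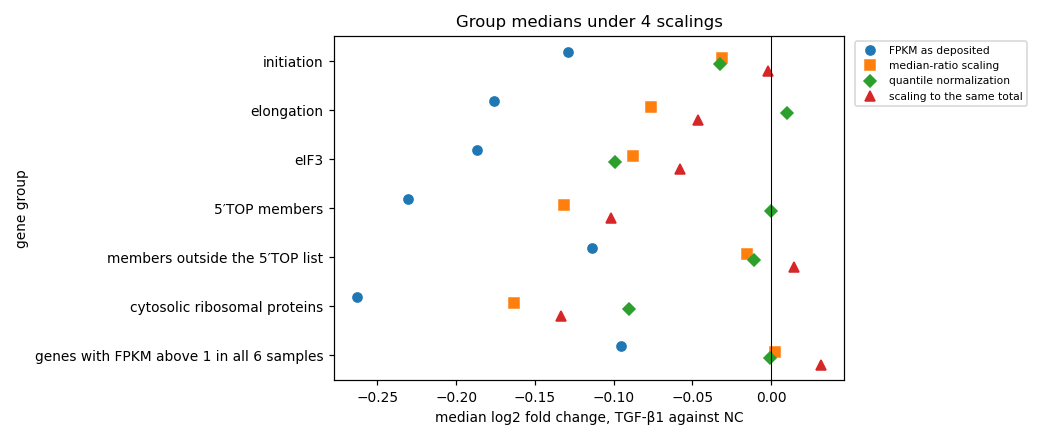
Median log2 fold change, TGF-β1 against NC, on the horizontal axis for groups of genes on the vertical axis, with 1 marker for each of 4 scalings. The reference genes lie between -0.10 and 0.03, eIF3 and the ribosomal proteins lie left of them under every scaling, and elongation lies at 0.01 under quantile normalization.

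Genes that control these factors from outside the family were read from a list of 45, of which 40 were found and 39 tested. It held mTOR signaling, the eIF2 kinases and phosphatase subunits, ribosome rescue, and the enzymes that modify eIF5A and eEF2. None passed at an adjusted p of 0.1, 3 were lower and 0 higher at a p of 0.05 from limma, 8 were separate and lower and 1, DPH2 of the diphthamide pathway, was separate and higher. Over all tested genes 7.26% were lower and 2.72% higher at that p, and 14.3% were separate and lower and 3.83% separate and higher, so 3 of 39 lower at that p is near the background. The median log2 fold change was -0.08. PDCD4, which inhibits eIF4A, had the largest of the 3 differences, with an FPKM of 16.7, 22.0 and 25.6 in NC and 10.3, 12.7 and 14.0 with TGF-β1. Its TGF-β1 mean was 57.6% of the NC mean (log2 fold change -0.78, SE 0.20, limma adjusted p = 0.393), without overlap. PAIP2B, which keeps poly(A)-binding protein from the tail, had 4.64, 4.47 and 4.96 in NC and 3.17, 4.05 and 3.35 with TGF-β1 (log2 fold change -0.41, limma adjusted p = 0.433). PELO, which rescues stalled ribosomes, had 15.1, 14.4 and 14.8 in NC and 13.2, 12.2 and 11.9 with TGF-β1 (log2 fold change -0.25, limma adjusted p = 0.474). DHPS and DOHH, the enzymes that make hypusine on eIF5A, overlapped at 0.23 and 0.17. The 11 rows of proliferation markers summed to 122 to 135 in NC and 111 to 126 with TGF-β1, and their part in these values was not tested.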

How the data were processed

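RNA of 3 NC and 3 TGF-β1 samples, grouped by title, was depleted of ribosomal RNA and sequenced. The deposited FPKM values were used. The authors made them with StringTie 1.3.1 after alignment to Sus scrofa 10.2. Sources used here do not name the aligner. The lncRNA tables carry no gene names and were not used.

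Log2(FPKM + 0.1) was tested with limma 3.58.1 in R 4.3.3 with default parameters, for genes that exceeded an FPKM of 0.1 in 3 or more samples, with Benjamini-Hochberg adjustment over all tested genes and the study's threshold of 0.1. Fold changes on this scale understate those of low genes. The fit was tested on simulated data. Ratios were compared by exact permutation (scipy 1.17.1). LOC numbers were named through a RefSeq table of Sscrofa11.1, whose build differs, so no coordinates are given. Relative depth was taken from low FPKM values in whole fragments, and interval estimates need counts that FPKM do not hold. StringTie shares fragments between overlapping genes, and strand use in counting is not given, so values of overlapping genes and of close paralogs are uncertain.

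Members and lists were chosen with earlier results of these data known. Genes were named if they had separate groups and a p under 0.05, were among the 3 highest or 3 largest changes of initiation or elongation with a mean FPKM of at least 1, failed the filter, or belonged to a list of core factors. Other names were chosen after their values were seen. Alternatives were other pseudocounts, filters, scalings and thresholds, a trended robust fit, a replicate block and leaving out each sample.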

Additional observations from a re-analysis of the deposited data

How the results depend on the processing

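The count of 0 members at an adjusted p of 0.1 held under every alternative run with limma. Genes called in the whole table numbered 17, and 49 with a pseudocount of 0.01, 11 with no filter, 5 with a mean FPKM of at least 1, 30 with quantile normalization, 46 with the trended robust fit, 9 at an adjusted p of 0.05 and 15 to 41 with a sample left out (41, 36 and 30 without TGF-β1 replicates 1, 2 and 3). Members lower at p 0.05 numbered 7, and 3 with scaling to the same total, 12 with the trended robust fit and 3 to 6 with a sample left out. It was 4 without NC replicate 1 and 3 without NC replicate 2. Members higher at p 0.05 numbered 0, and 2 under each of the 3 scalings, 1 with the trended robust fit and 0 to 1 with a sample left out (1 without TGF-β1 replicate 3). Members separate and lower numbered 20, and 10, 8 and 8 with median-ratio scaling, quantile normalization and the same total. Members separate and higher numbered 2, and 6, 5 and 8 under these scalings and 2 to 4 with a sample left out (4 without TGF-β1 replicate 3).

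The initiation median of -0.13 became -0.0313, -0.0327 and -0.0019 under median-ratio scaling, quantile normalization and the same total. The elongation median of -0.18 became -0.0764, 0.0102 and -0.0465. Under the same order of scalings EIF5A was at 0.0908, 0.0748 and 0.12, GSPT1 at 0.0849, 0.0684 and 0.11, and PABPC1 at 0.0309, 0.0395 and 0.0607. EEF2 was at 0.0203 and EEF1G at 0.0555 with quantile normalization, and EIF4E at 0.0227 with the same total. With a sample left out, EIF4G2 ranged from -0.0604 to 0.10, EIF4A1 from -0.0134 to 0.0640, EIF5A from -0.12 to 0.0870, GSPT1 from -0.11 to 0.0863, EEF1E1 from -0.0879 to 0.10 and EIF6 from -0.0074 to 0.0507, and the log2 ratio of EIF4EBP2 to EIF4E differed by -0.14 to 0.0476. Beyond the scaling itself, the cause was not tested. EEF1B2, EIF3H and EIF4EBP3 kept a p under 0.05 from limma without any 1 sample, while EIF3E did in 5 of 6 such fits, EIF3G in 3, EEF1A1 in 1 and EEF2 in 0.

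Replicate numbers are shared between the groups. Same-numbered samples deviated together in part (correlations 0.251, 0.004 and 0.196), and differently numbered ones had correlations of -0.235 to 0.040. Some markers, but not all, ran in the same order over replicates 1, 2 and 3 in both groups. CD163 was at 8.21, 25.3 and 32.6 in NC and 1.70, 12.5 and 21.8 with TGF-β1, and ACTA2 fell from replicate 1 to 3 in both. The samples were not treated as pairs in the main fit, so any difference shared by replicate number stays in its spread. With a replicate block, 3 genes were called in the whole table, 0 members were, and 5 members were lower at p 0.05. FPKM hold no counts, so depth limits low genes such as PABPC5 in a way these values do not show.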
